A study of Danio rerio with 50 samples.

Results

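Genes that handle heme and iron were followed in the liver of adult male zebrafish (Danio rerio) given estradiol. The set holds 5 of the 9264 named genes on the array: hemopexin (hpxa), haptoglobin (hp), the heme oxygenases hmox1a and hmox1b, and the ferritin-like gene fthl31. They were chosen by name with earlier results of these data known, and every probe whose current or older symbol matched was taken. This gave 6 probes, because hpxa has a bright probe and a very dim one (5465605). The array's annotation writes hp as wu:fb64e01, hmox1a as hmox1, hmox1b as zgc:77234 and fthl31 as zgc:109934.

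Heme set free from hemoglobin or from dying cells is toxic, and the liver secretes plasma proteins that bind it: haptoglobin captures hemoglobin and hemopexin captures heme itself. Heme oxygenases open the heme ring inside the cell and release iron, biliverdin and carbon monoxide. Ferritin then stores the iron in a protein shell, while hepcidin, a liver hormone, limits how much iron enters the blood. In mammals haptoglobin and hemopexin are acute phase proteins made mainly by hepatocytes.

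Males were kept with 0.5, 5 or 50 µg/L estradiol for 24 or 96 h, and untreated males were sampled at both times. Estradiol is the estrogen that makes the liver of egg-laying females produce yolk protein. Controls numbered 8 at 24 h and 7 at 96 h, each dose had 6 arrays at 24 h, and the 96 h arrays numbered 6, 4 and 7 from the lowest to the highest dose. Titles gave the times; the descriptions of 6 of the 7 arrays of 50 µg/L name a time longer by 1 h, and those of 5 µg/L speak of 6 replicates, of which 4 were analysed here. On every array liver RNA of treated or untreated males carried Cy5 and was measured against a reference pool, labelled with Cy3, of wild-type male and female liver.

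Values below are log2 ratios of the fish sample over that pool, and differences between groups are log2 differences ± SE of a limma fit across 22046 tested probes, with p adjusted over all of them. Of 9 tested hepatocyte markers 8, among them the liver fatty acid binding protein fabp10a and transferrin (tfa), had a Cy5 spot above background on all 35 treated arrays. Fewer than 60% of Cy5 spots were above background on 5 arrays, which are replicates 3, 4 and 5 of 50 µg/L at 24 h and replicates 3 and 4 of 50 µg/L at 96 h. These are called low-signal arrays. Replicate 2 of 0.5 µg/L at 24 h stood apart as a whole array: the correlation with the other arrays of its group was 0.592 across probes, the lowest of the 50 arrays, and on it the pool's Cy3 spot of fthl31 read 429 scanner units against a group median of 12070. Results that rest on it are given with and without it. For the 15 control arrays no spot brightness was used here, so none of them could be called low-signal. Control 3 of 24 h had 19009 values, against 21400 to 22746 on the other controls. In whole liver, fewer cells of a type and less RNA per cell cannot be told apart.

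Estradiol lowered the secreted heme scavengers and hmox1b, with more of the 5 genes called at the upper doses than at 0.5 µg/L. At 24 h, 2, 3 and 4 of the 5 genes fell in order of dose, where 0.295%, 3.15% and 5.7% of all tested probes fell. At 96 h, 1, 3 and 3 of the 5 genes fell at these doses, where 1.25%, 5.48% and 8.78% of all tested probes fell. None of the 5 rose against controls by this test, while 0.209%, 2.93% and 7.09% of all tested probes rose at 24 h and 2%, 7.12% and 9.19% at 96 h, in order of dose. Because the genes were chosen with earlier results of these data known, the shares over all probes are a background and not a test of the set. Some of these falls rest on few arrays. Both 24 h calls at 0.5 µg/L, of hp and hmox1a, ended without replicate 2 of that group, the array that stood apart. The hmox1a difference itself hardly moved without that array. It was much smaller without 24 h controls 1 to 3, where its call also ended. The 24 h calls of fthl31 at the upper doses ended without 24 h controls 1 to 3. At 96 h the hpxa call at 0.5 µg/L and the hmox1b call at 5 µg/L ended in some fits that left out 1 array. The measured differences varied with time. hpxa fell most at 96 h, and hmox1b had its largest measured difference at 24 h. With all controls, fthl31 was lower at 24 h but not at 96 h. When the effects at both times were compared, hmox1b passed at no dose, and the fthl31 differences ended without 24 h controls 1 to 3. Only the hpxa difference at 5 µg/L passed in every fit that left out 1 array.

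**Figure D1:**
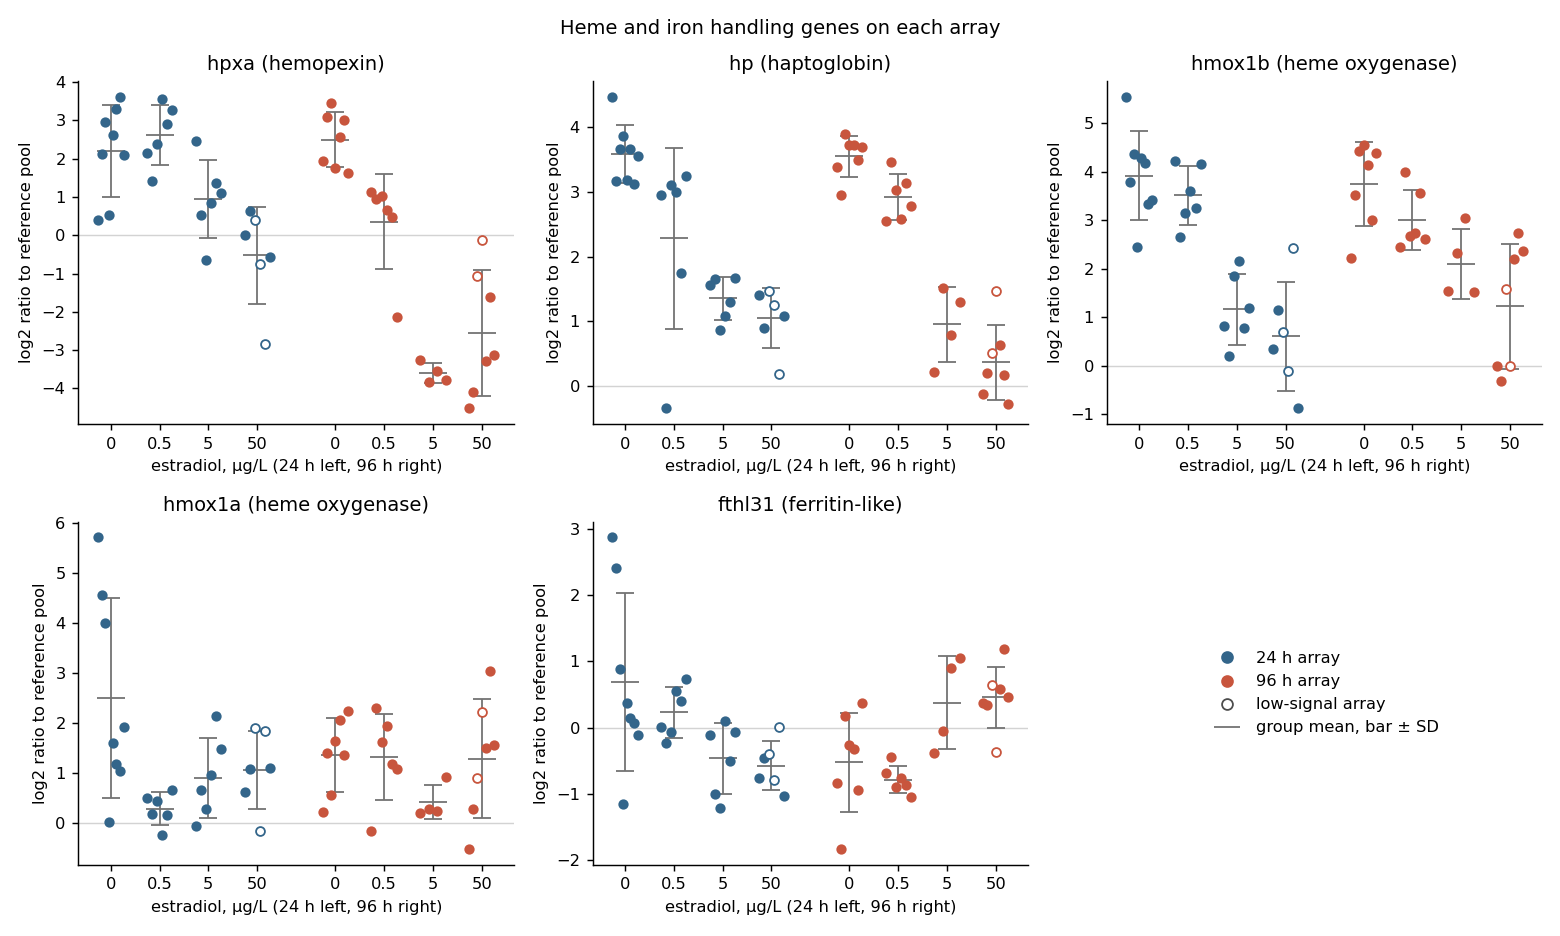
Each point is the log2 ratio (fish sample over reference pool) of a gene on an array, by estradiol dose in µg/L. The 24 h groups are in blue and the 96 h groups in red. Grey marks give the group mean ± SD and open points the 5 low-signal arrays, a label that only treated arrays could get. At 96 h every hpxa value of the treated groups lies below every control value, while the 24 h controls of hmox1a spread from 0.00 to 5.71.

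Hemopexin, the plasma carrier of free heme, showed the largest fall of the set. On the 8 control arrays at 24 h its log2 ratio ran from 0.40 to 3.62 with a median of 2.36, and on the 7 at 96 h from 1.61 to 3.44 with a median of 2.58. The controls of both times thus covered much the same range, and the difference between them was 0.29 ± 0.54 (adjusted p = 0.894).

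After 24 h the 0.5 µg/L arrays of hpxa ran from 1.43 to 3.56 (median 2.64), the 5 µg/L arrays from -0.64 to 2.46 (median 0.97) and the 50 µg/L arrays from -2.85 to 0.64 (median -0.29). All 3 groups overlapped the controls. Only the change at 50 µg/L passed the test, a fall by 2.72 ± 0.57 or 6.61-fold (limma adjusted p = 0.000362, n = 6 and 8). The differences at 0.5 and 5 µg/L were 0.41 ± 0.57 (adjusted p = 0.856) and -1.26 ± 0.57 (adjusted p = 0.224).

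After 96 h the treated and control arrays no longer overlapped at any dose. At 0.5 µg/L 5 arrays lay between 0.47 and 1.14 and replicate 6 lay apart at -2.14. At 5 µg/L the 4 arrays read -3.26, -3.83, -3.56 and -3.77, which is a narrow range (SD 0.26). At 50 µg/L the 7 arrays spread from -4.52 to -0.12 (median -3.13), and the 2 highest, at -0.12 and -1.08, were the low-signal arrays.

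The 0.5 µg/L group fell 4.41-fold, a log2 difference of -2.14 ± 0.58 (limma adjusted p = 0.0276, n = 6 and 7). The 5 µg/L group fell 68.4-fold (-6.10 ± 0.66, adjusted p = 5.32e-10, n = 4 and 7). The 50 µg/L group fell about 32.8-fold (-5.04 ± 0.56, adjusted p = 7.70e-10, n = 7 and 7), a size that is inexact because the Cy5 spot was not above background on replicates 1 and 2. No overlap in this direction was seen for 0.562%, 3.82% and 2.81% of all tested probes at these doses. The call at 0.5 µg/L ended when replicate 6 of that group was left out (-1.64, adjusted p = 0.141) or control replicate 2, 3 or 6 (-2.04, -1.98 and -2.06, adjusted p = 0.0673, 0.0709 and 0.0597). It also ended with quantile normalization (-1.94, adjusted p = 0.0610).

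In the raw Cy5 signal of the treated arrays, the median hpxa spot was dimmer at 96 h than at 24 h within each dose. It went from 53926.5 to 10195.5 scanner units at 0.5 µg/L, from 15165.5 to 460 at 5 µg/L and from 4608 to 600 at 50 µg/L. Brightness also varied between whole arrays. The array median in Cy5 was 174 to 833.5 units for 0.5 µg/L at 24 h and 216 to 428 for 5 µg/L at 96 h. The Cy5 spot of hpxa, less its local background, read 25728 scanner units or more on the 6 arrays of 0.5 µg/L at 24 h and was saturated on 2 of them, so that group's ratio is open to compression. On the 4 arrays of 5 µg/L at 96 h it read 313 to 609 units. On the 7 arrays of 50 µg/L at 96 h it read 128 to 4414 units and was above background on 5.

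**Figure D2:**
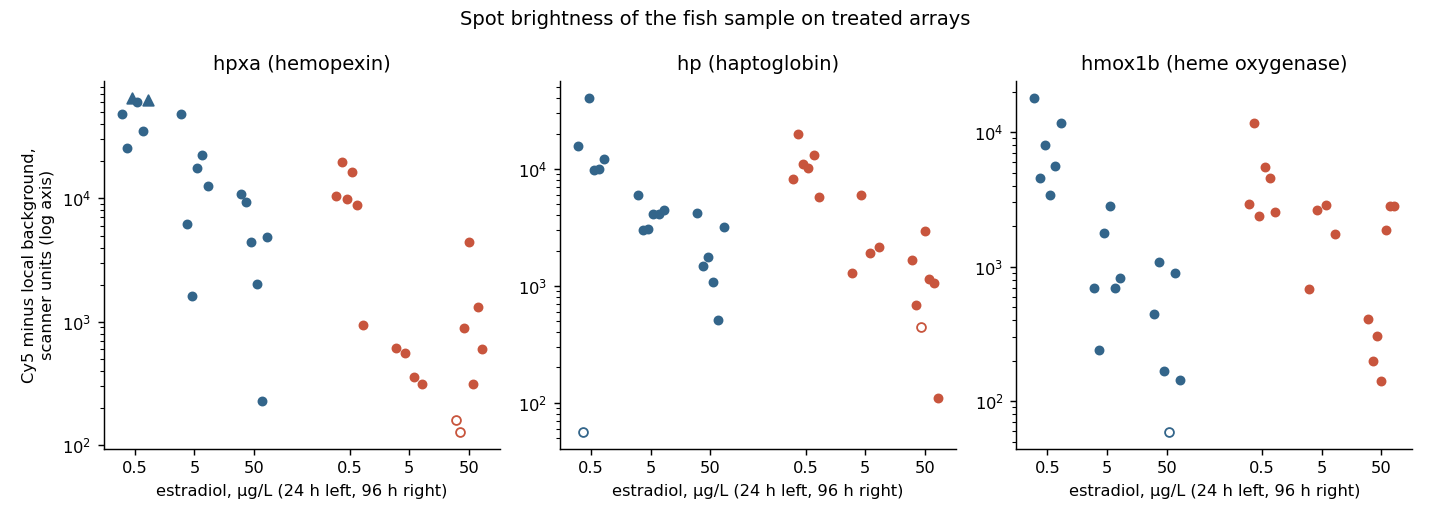
Cy5 brightness of the fish sample less local background, in scanner units on a log axis, for hpxa, hp and hmox1b on the 35 treated arrays, by dose in µg/L; triangles are saturated spots and open circles spots not above background. The hpxa spots of 5 µg/L at 96 h read 313 to 609 units, and the only hp spot not above background at 24 h is replicate 2 of 0.5 µg/L.

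The dim second probe of hpxa could not be compared with controls, since it had a value on only 2 arrays of 50 µg/L at 24 h. Its Cy3 signal averaged 77.3 units, against 6480 for the bright probe. Among treated arrays its largest difference between neighbouring doses was -0.46 ± 0.25 (50 against 5 µg/L at 24 h, adjusted p = 0.933). The falls of hpxa therefore rest on the bright probe alone.

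Haptoglobin, the hemoglobin-binding plasma protein, fell early and stayed low. Controls read 3.12 to 4.48 at 24 h (median 3.61) and 2.95 to 3.90 at 96 h (median 3.69), a narrow band at both times. At 5 µg/L the 6 arrays at 24 h lay between 0.87 and 1.67, and the 4 at 96 h read 0.21, 1.52, 0.79 and 1.30. At 50 µg/L the arrays lay between 0.19 and 1.47 at 24 h and between -0.28 and 1.47 at 96 h. None of these 4 groups overlapped its controls. At 24 h 0.975% and 2.36% of all tested probes lay wholly below controls at 5 and 50 µg/L, and at 96 h 3.82% and 2.81%. For 50 µg/L at 96 h the Cy5 spot of hp was above background on 6 of 7 arrays, the exception being replicate 3 (43% of pixels). The lowest value there, -0.28, came from replicate 7. On that array the hp spot read 110 units in Cy5 and 123 in Cy3, against a group Cy3 median of 1051.

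After 24 h hp was 4.71-fold lower at the middle dose and 5.82-fold lower at the top dose (-2.24 ± 0.33 and -2.54 ± 0.33, limma adjusted p = 2.37e-06 and 4.13e-08). After 96 h it was 6.05-fold and 9.10-fold lower (-2.60 ± 0.38 and -3.19 ± 0.32, adjusted p = 1.02e-06 and 4.94e-11). The difference between the times of either effect did not pass the test (-0.36 ± 0.50 and -0.64 ± 0.46, adjusted p = 0.858 and 0.666).

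At 0.5 µg/L the call for hp was weak. The 24 h arrays read 2.96, -0.35, 3.10, 3.00, 1.75 and 3.25, so that 1 array lay far below the rest. On that array, the replicate 2 that stood apart as a whole, the hp spot was above background in neither channel, with 33% and 46% of its pixels above it in Cy5 and Cy3. With all arrays hp fell by 1.31 ± 0.33 (adjusted p = 0.0454), and without replicate 2 the difference was -0.78 (adjusted p = 0.228). Leaving out replicate 5 (-1.20, adjusted p = 0.154) or control 1 (-1.18, adjusted p = 0.156), 3, 4, 6 or 8 (-1.31 to -1.27, adjusted p = 0.0543 to 0.0809) also ended the call. At 96 h the ratio ran from 2.55 to 3.46, -0.63 ± 0.34 from controls (adjusted p = 0.376).

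Of the heme oxygenases, which break heme down, hmox1b passed in more comparisons with control than hmox1a did. The genes were not tested against each other. hmox1b fell at 5 and 50 µg/L at both times. Its control ratios ran from 2.46 to 5.55 at 24 h (median 3.98) and from 2.23 to 4.55 at 96 h (median 4.14). At 24 h the arrays of 5 µg/L lay between 0.19 and 2.17 and those of 50 µg/L between -0.88 and 2.42, wholly below the controls, as were the 0.975% and 2.36% of all tested probes given for hp. At 96 h the 4 arrays of 5 µg/L read 1.54, 2.32, 3.04 and 1.53 and the 7 of 50 µg/L ran from -0.31 to 2.73, both overlapping the controls.

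After 24 h hmox1b was 6.75-fold lower at the middle dose and 9.96-fold lower at the top dose (-2.76 ± 0.46 and -3.32 ± 0.46, limma adjusted p = 2.88e-05 and 2.62e-07). After 96 h the top dose lowered it 5.75-fold (-2.52 ± 0.46, adjusted p = 3.19e-05). The 96 h call at 5 µg/L (-1.64 ± 0.53, adjusted p = 0.0321) ended with array weights (-1.41, adjusted p = 0.0745). It also ended in 7 of 11 fits that left out 1 array, namely treated replicate 1, 2 or 4 or control replicate 3, 4, 5 or 7, with values of -1.71 to -1.45 in them. At 0.5 µg/L the differences were -0.41 ± 0.46 at 24 h and -0.74 ± 0.47 at 96 h (adjusted p = 0.812 and 0.490). The Cy5 spot of hmox1b was above background on all treated arrays except 1 of 50 µg/L at 24 h. Its Cy3 spot, the pool's, was above background on 5 of 6 arrays of 0.5 µg/L at 96 h, 4 of 6 of 50 µg/L at 24 h and 6 of 7 of 50 µg/L at 96 h, and on all arrays of the other 3 treated groups.

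For hmox1a the 24 h comparison turned on the controls. Controls 1, 2 and 3 read 5.71, 4.55 and 3.99, and the other 5 read 0.00, 1.60, 1.17, 1.03 and 1.91. On the treated 24 h arrays the ratio ran from -0.26 to 0.66, from -0.06 to 2.13 and from -0.17 to 1.90 in order of dose. The pool's Cy3 spot of hmox1a was above background on only 4 of 6, 4 of 6 and 3 of 6 of these arrays. It was above background on 5 of 7 arrays of 50 µg/L at 96 h, so these ratios are inexact. Every treated array thus lay below the 3 high controls, and each group overlapped the other 5.

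With all controls hmox1a fell by 2.22 ± 0.55 at 0.5 µg/L (limma adjusted p = 0.0446), while 5 and 50 µg/L gave -1.60 ± 0.55 and -1.44 ± 0.55 (adjusted p = 0.0771 and 0.0801). Without controls 1 to 3, a setting chosen after their values were seen, the 0.5 µg/L difference was -0.87 (adjusted p = 0.752). That call also ended in 9 of 14 fits that left out 1 array, namely control 1, 2, 3 or 8 or treated replicate 1, 2, 3, 4 or 5, with adjusted p of up to 0.169 (-1.76, without control 1) and of 0.0916 without treated replicate 2 (-2.20). Conversely, 5 µg/L passed without control 4 or 7 (-1.95 and -1.81, adjusted p = 0.0155 and 0.0476) and 50 µg/L without control 4, 6 or 7 (-1.80, -1.63 and -1.65, adjusted p = 0.0171, 0.0494 and 0.0457). At 96 h hmox1a gave -0.03 ± 0.57, -0.94 ± 0.64 and -0.07 ± 0.55 at the 3 doses (adjusted p = 0.991, 0.400 and 0.947). The fit takes its spread from all groups, so these errors also carry the 24 h controls (SD 2.00). In fits of only the compared groups none of the 3 passed either.

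Marker lists of other cell types were read on the same controls. The mean log2 ratio of 13 erythrocyte markers was -1.67, -0.87 and -0.91 on them and ran from -1.13 to -0.35 on the other 5 arrays. The mean of 15 macrophage and neutrophil markers was -1.18, -0.83 and -1.09 on them and ran from -1.29 to -0.72 on the others. The mean of the 5 ferritin and iron storage genes, fthl31 among them, ran from 0.31 to 0.97 on controls 1 to 3 and from -0.66 to 0.07 on the others. The means of the list for heme binding, transport and breakdown, which holds hmox1a, ran from 1.40 to 1.61 and from 0.68 to 1.31, and those of the list for iron uptake, export and regulation from 1.17 to 1.20 and from 0.84 to 1.09. The ferritin and heme binding lists hold fthl31 and hmox1a, the genes in which these controls stood out. Their gaps are therefore not separate readings, and means without the members were not computed. Hepatocyte markers overlapped, with means of 2.60 to 3.13 and 2.17 to 2.71. Why these controls were high in hmox1a was not tested.

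Ferritin-like fthl31, a relative of the ferritin heavy chain that holds stored iron, was the 1 gene of the set whose effect differed in the positive direction between the times. Its 24 h controls ran from -1.16 to 2.87, and the 3 highest, at 2.87, 2.41 and 0.89, were again controls 1, 2 and 3. At 24 h fthl31 lay between -1.21 and 0.10 at 5 µg/L and between -1.03 and 0.01 at 50 µg/L. At 96 h the controls ran from -1.84 to 0.36 (median -0.32), the 4 arrays of 5 µg/L read -0.39, -0.05, 0.90 and 1.04, and the 7 of 50 µg/L ran from -0.37 to 1.18 (median 0.46). All of these groups overlapped their controls. On replicate 7 of 50 µg/L at 96 h, which read 0.46, the pool's Cy3 spot of fthl31 gave 1264 units against a group median of 10147.

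At 24 h fthl31 fell 2.22-fold at the middle dose and 2.39-fold at the top dose (-1.15 ± 0.37 and -1.26 ± 0.37, limma adjusted p = 0.0471 and 0.0137), and 0.5 µg/L gave -0.46 ± 0.37 (adjusted p = 0.715). At 96 h it measured 0.90 ± 0.43 and 0.99 ± 0.36 above controls at 5 and 50 µg/L, just short of the threshold at 50 µg/L (adjusted p = 0.176 and 0.0503), and -0.26 ± 0.38 at 0.5 µg/L (adjusted p = 0.813). Without 24 h controls 1 to 3 together the 24 h differences were -0.33 and -0.44 (adjusted p = 0.728 and 0.442), so both calls rest on those 3 arrays. Without control 1 alone they were -0.84 and -0.95 (adjusted p = 0.154 and 0.0522), and the call at 5 µg/L also ended without control 2 or 3 or treated replicate 1, 2, 3 or 5 (-1.22 to -0.91, adjusted p = 0.0567 to 0.136).

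**Figure D3:**
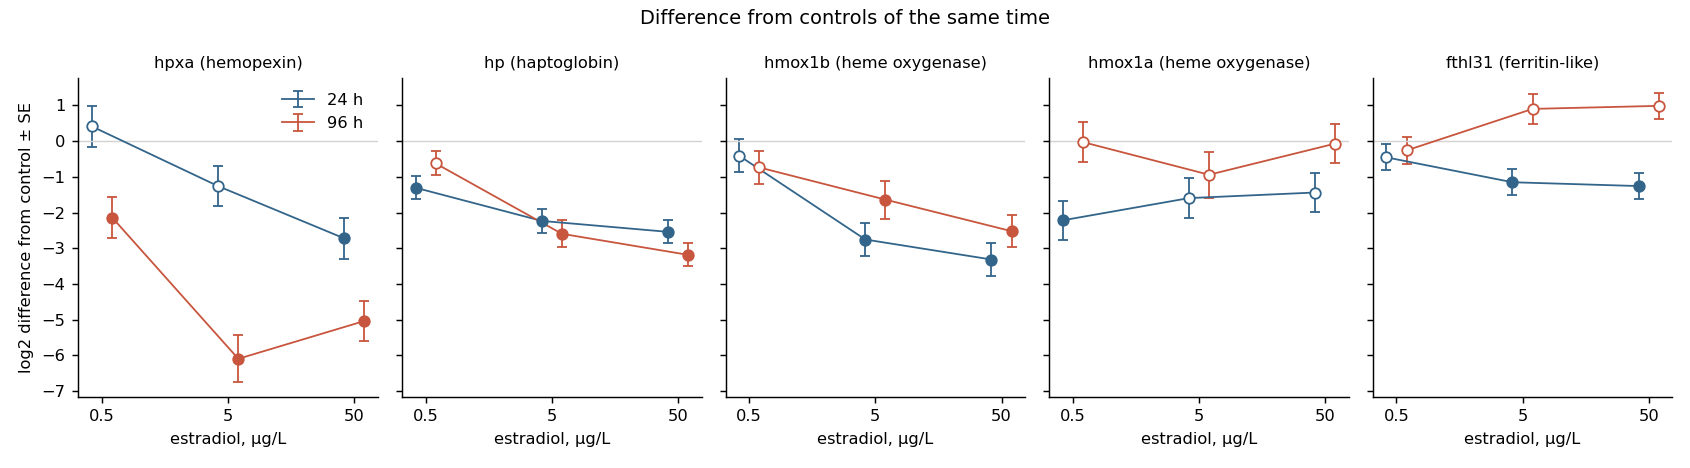
Log2 difference from the controls of the same time (y axis, ± SE of the limma fit) against estradiol dose in µg/L (x axis) for each of the 5 genes, at 24 h (blue) and 96 h (red); filled points passed an adjusted p of 0.05. The hpxa line of 96 h lies well below that of 24 h, and the fthl31 lines part to either side of 0.

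The effect of estradiol at 96 h was compared with that at 24 h in the same fit. For hpxa the 5 µg/L effect was larger at 96 h by a difference of -4.83 ± 0.87 (limma adjusted p = 0.00150), and it passed in all 25 fits that left out 1 array. Such a negative difference passed for 0.308% of tested probes. At 0.5 µg/L, where 0.758% of tested probes and none of the 5 genes passed, the difference for hpxa was -2.55 ± 0.81 (adjusted p = 0.165). At 50 µg/L it was -2.31 ± 0.80 (adjusted p = 0.254). This difference passed without the low-signal arrays (-3.63, adjusted p = 0.0165) or with array weights (-2.90, adjusted p = 0.0305).

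For fthl31 the 96 h effect of the upper doses was higher than the 24 h effect, by 2.05 ± 0.56 and 2.25 ± 0.52 (5 and 50 µg/L, adjusted p = 0.0491 and 0.0370), where 0.966% and 0.172% of tested probes had a positive difference that passed. These calls ended in 16 of 25 and 16 of 28 fits that left out 1 array, with values of 1.74 to 2.32 and 1.93 to 2.51 over all such fits. Without 24 h controls 1 to 3 they were 1.23 and 1.42 (adjusted p = 0.253 and 0.262). For hp, hmox1a and hmox1b no such difference passed at any dose. Between control groups, 96 against 24 h, none of the 5 genes passed, where 1.02% of tested probes did; fthl31 came nearest (-1.21 ± 0.35, adjusted p = 0.0746) and passed without 24 h control 4 (-1.48, adjusted p = 0.0109).

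Neighbouring doses were compared on the treated arrays alone, starting from scanner brightness, with 22776 probes tested. From 0.5 to 5 µg/L at 24 h, hmox1b was the 1 gene of the 5 that changed, falling by 2.42 ± 0.51 (limma adjusted p = 0.00299), where 1.12% of probes fell. Without replicate 2 of 0.5 µg/L, the array that stood apart, hp also fell (-1.52, adjusted p = 0.000627, against 0.155 with it), and without replicate 4 of 5 µg/L fthl31 did (-0.91, adjusted p = 0.0469, against 0.0861 with it). At 96 h this step lowered hpxa and hp (-4.07 ± 0.74 and -1.96 ± 0.42, adjusted p = 0.000816 and 0.00485), where 1.02% of probes fell. It raised fthl31 by 1.12 ± 0.28 (adjusted p = 0.0252), where 1.22% of probes rose.

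In each of these 4 changes the arrays of the lower and the higher dose did not overlap. Of all probes 0.351% lay wholly lower at 24 h, and 1.67% wholly lower and 2.07% wholly higher at 96 h. The rise of fthl31 did not pass in the authors' ratios (1.16, adjusted p = 0.190). That fit took its spread from all 50 arrays, controls included, so values and arrays changed together. Nor did the rise pass without replicate 3 or 4 of 5 µg/L (0.97 and 0.88, adjusted p = 0.145 and 0.129). From 5 to 50 µg/L none of the 5 genes passed at either time. At 24 h 0.277% of probes did, and at 96 h 0% (0 probes in limma and with the authors' ratios, 946 at an unadjusted p under 0.05). For hpxa that last step gave 0.97 with a 95% interval of -0.49 to 2.43, and for hmox1b -0.85 with an interval of -1.97 to 0.27.

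Arrays of the same group that were high in one gene were in part high in another. After the group mean was taken from each value, hmox1b and fthl31 correlated over the 50 arrays at Pearson r = 0.565 and Spearman rho = 0.604 (permutation p adjusted over 10 pairs of genes 0.0005 and 0.0003, unadjusted 5e-05 and 3e-05). Without the 2 arrays farthest from the median of hmox1b r was 0.494, and without the 24 h controls, on 42 arrays, it was 0.547 (adjusted p = 0.0032). Of 14676 other probes with a value on every array 5 followed hmox1b more closely than fthl31 did, and 33 followed fthl31 more closely than hmox1b did. The pair hmox1a and hmox1b gave r = 0.510 and rho = 0.455 (permutation adjusted p = 0.002 and 0.00913, unadjusted 0.0006 and 0.00274), then 0.391 without the 2 farthest arrays and 0.454 without the 24 h controls.

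For hmox1a and fthl31 r was 0.643 and rho 0.504 (permutation adjusted p = 0.001 and 0.00475, unadjusted 0.0002 and 0.00095). The relation rests on the 24 h controls: without that group r was 0.245 (adjusted p = 0.327). Hemopexin and haptoglobin gave r = 0.273 and rho = 0.165 (permutation adjusted p = 0.113 and 0.453, unadjusted 0.0450 and 0.272), which became 0.420 (adjusted p = 0.0116) without the 24 h controls. None of the other 6 pairs passed over the 50 arrays. The part of RNA quality or labelling of single arrays in these relations was not tested.

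**Figure D4:**
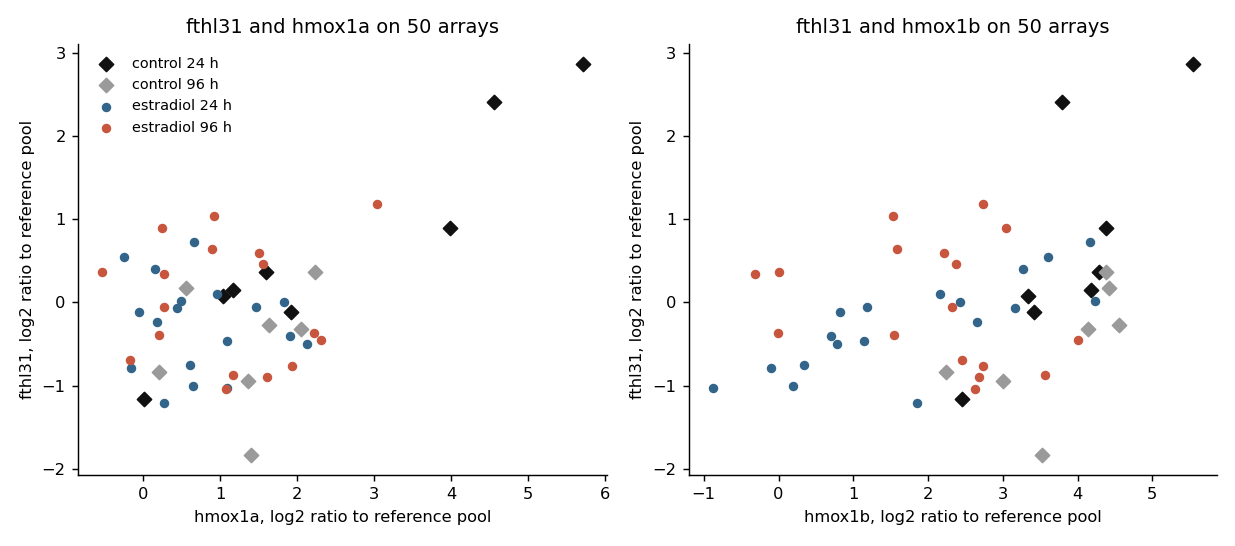
Log2 ratio to the reference pool of fthl31 (y axis) against that of hmox1a (left) and hmox1b (right), 1 point per array; diamonds are controls (black 24 h, grey 96 h) and circles estradiol arrays (blue 24 h, red 96 h). The 24 h controls at the top right, 3 on the left panel with hmox1a of 3.99 or more, stand apart from the other arrays.

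Among genes of heme synthesis, alas1 and urod rose. Of 10 tested genes 2 rose and none fell at 50 µg/L and 24 h, and 2 rose and 1 fell at 96 h. Of all tested probes 7.09% and 9.19% rose and 5.7% and 8.78% fell at these times. The median log2 difference of the list was 0.08 and -0.02, against 0.03 and 0.09 over 9170 named genes. For alas1, the rate-limiting enzyme of heme synthesis in liver, control log2 ratios ran from -1.48 to -0.81 at 24 h and from -1.88 to -0.58 at 96 h, and 50 µg/L arrays from -0.11 to 1.53 and from -0.20 to 1.57. It rose by 1.85 ± 0.31 and 2.13 ± 0.30 (adjusted p = 1.06e-05 and 3.74e-07), with rises of 1.04 ± 0.31 and 1.92 ± 0.36 for 5 µg/L, and of 1.24 ± 0.32 for 0.5 µg/L after 96 h.

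A second alas1 probe (5468501) did not follow: at 50 µg/L it gave 0.00 at 24 h and -0.42 at 96 h. The rise of alas1 therefore rests on the brighter of 2 probes that disagree. Uroporphyrinogen decarboxylase (urod), a later enzyme of the pathway, rose by 1.34 ± 0.21 and 1.59 ± 0.21 at 50 µg/L (adjusted p = 2.96e-06 and 4.03e-08). The outer mitochondrial membrane protein gene tspo fell by 1.05 ± 0.25 at 96 h. Ferrochelatase (fech), which inserts the iron, gave 0.39 and 0.32 and did not pass.

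Among 12 genes for heme binding, transport and breakdown, which include hpxa, hp, hmox1a and hmox1b, 6 fell at 50 µg/L and 24 h and 5 at 96 h, and none rose. Of all tested probes 5.7% and 8.78% fell. The median difference was -0.79 and -0.37, against 0.03 and 0.09 over all named genes. These counts and medians include the members, so they are not a separate result. The calls outside the set were pgrmc1 and abcg2a at both times and blvrb at 24 h. Outside the set, the heme-binding membrane protein gene pgrmc1 also fell (-0.93 ± 0.19 and -1.40 ± 0.19 after 24 and 96 h). So did the transporter gene abcg2a (-1.23 ± 0.19 after 24 h, adjusted p = 4.15e-06; 96 h adjusted p = 1.88e-05). A second pgrmc1 probe gave -0.40 and -0.28 and passed at neither time (limma adjusted p = 0.264 and 0.382). Biliverdin reductase B (blvrb) fell by 0.64 ± 0.15 at 24 h. The constitutive heme oxygenase gene hmox2a gave -0.21 and -0.08 and did not pass.

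**Figure D5:**
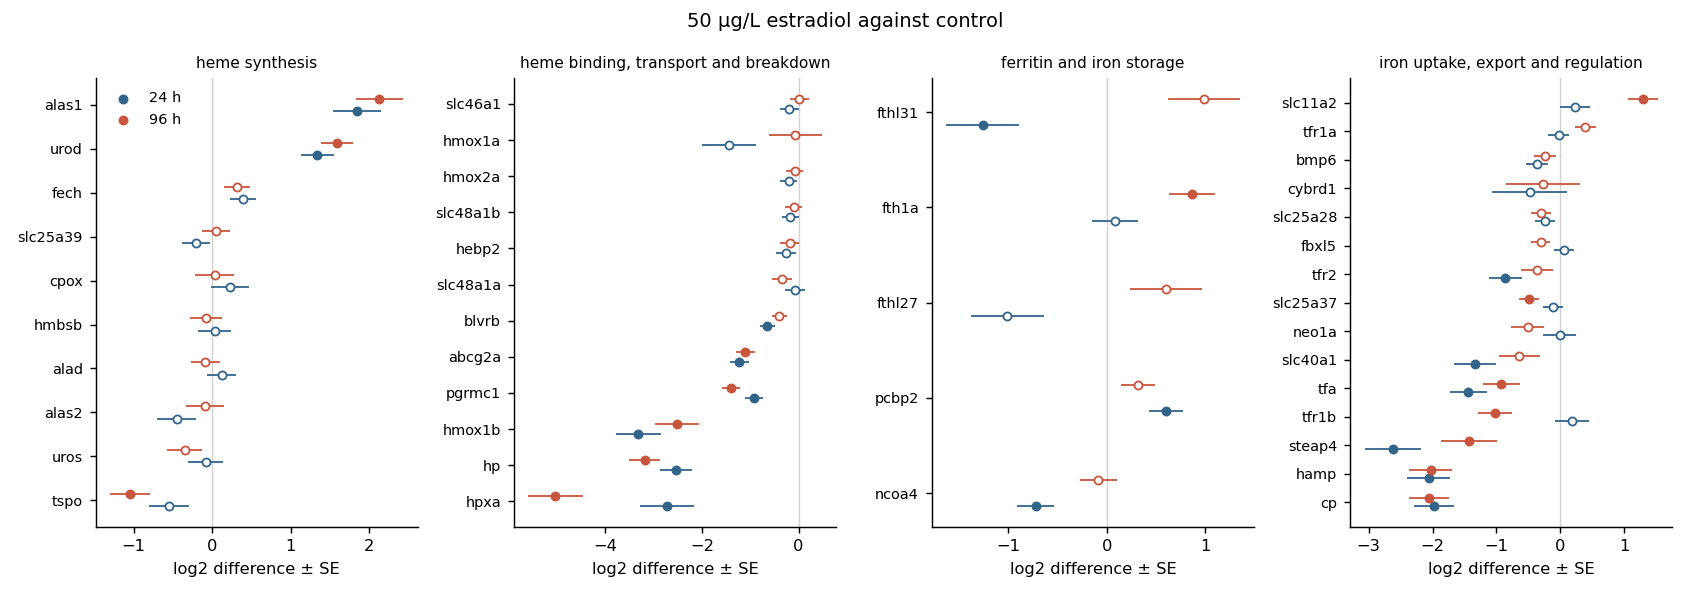
Log2 difference from control ± SE at 50 µg/L estradiol after 24 h (blue) and 96 h (red) for the tested genes of 4 lists, with filled points past an adjusted p of 0.05. In the list of heme binding, transport and breakdown all points that passed lie below 0, while alas1 and urod lie above 0 in the list of heme synthesis.

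Among ferritin and iron storage genes, 5 tested, fth1a, the ferritin heavy chain, rose after 96 h of 50 µg/L by 0.87 ± 0.23 (adjusted p = 0.00519), where its second probe gave 0.19. At 24 h the probes disagreed the other way, with 0.09 (adjusted p = 0.882) on the first and 0.70 (adjusted p = 0.00489) on the second. The second ferritin-like gene fthl27 measured -1.01 at 24 h and 0.60 at 96 h and passed at neither time. The ferritin receptor for autophagy, ncoa4, fell after 24 h (-0.90 ± 0.19 and -0.72 ± 0.19 for 5 and 50 µg/L), and pcbp2, an iron chaperone in mammals, rose by 0.60 ± 0.18 at 50 µg/L. At 50 µg/L 1 of the 5 genes rose and 2 fell at 24 h, and 1 rose at 96 h. The 2 that fell were ncoa4 and the member fthl31, so this count is not a separate result. Of all tested probes 7.09% rose and 5.7% fell at 24 h, and 9.19% rose and 8.78% fell at 96 h.

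Iron uptake, export and regulation was covered by 15 tested genes. At 50 µg/L 6 fell at 24 h with none rising, and 6 fell and 1 rose at 96 h. Of all tested probes 5.7% and 8.78% fell and 7.09% and 9.19% rose at these times. The median difference of the list was -0.36 and -0.49, against 0.03 and 0.09 over all named genes. The hepcidin gene hamp read 4.04 to 5.94 on 24 h controls and 2.22 to 3.23 at 50 µg/L, which do not overlap. In that comparison 2.36% of all tested probes lay wholly below controls. At 96 h the ranges were 3.96 to 5.48 and 1.44 to 4.45. It fell by 2.06 ± 0.33 and 2.03 ± 0.33 (adjusted p = 6.05e-06 and 4.99e-06).

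Ceruloplasmin (cp), the plasma ferroxidase, fell with 50 µg/L (-1.98 ± 0.32 and -2.05 ± 0.31 after 24 and 96 h), as did the metalloreductase gene steap4 (-2.62 ± 0.44 and -1.43 ± 0.44). Transferrin (tfa), the iron carrier of plasma, fell by 1.44 ± 0.30 and 0.92 ± 0.29. Its spot was saturated on 3 of 6 and 2 of 7 arrays of 50 µg/L at 24 and 96 h, and on all 6 arrays of 0.5 µg/L at either time, so the ratios and falls of tfa are open to compression. Ferroportin (slc40a1), the iron exporter, fell at 24 h by 1.34 ± 0.33 and gave -0.64 at 96 h (limma adjusted p = 0.182). The 24 h calls of this list were not examined without 24 h controls 1 to 3. Transferrin receptor 1b (tfr1b) fell at 96 h by 1.02 ± 0.26. The iron importer gene slc11a2 rose at 96 h, by 0.88 ± 0.24, 1.34 ± 0.27 and 1.30 ± 0.23 at the 3 doses. Its second probe gave 0.84 and 0.43 at 5 and 50 µg/L.

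Iron-sulfur cluster assembly, the other main use of iron, gave 1 call among 8 genes in all 6 comparisons with control: isca1 fell after 24 h of 5 µg/L (-0.61 ± 0.19, adjusted p = 0.0485), where 3.15% of all tested probes fell. Among 23 genes of oxidative stress defence, 50 µg/L raised 3 and lowered 5 after 24 h, and raised 7 and lowered 7 after 96 h. At that dose 7.09% and 9.19% of all tested probes rose and 5.7% and 8.78% fell at these times. bach1b, whose mammalian counterpart represses heme oxygenase, fell at 50 µg/L (-1.18 ± 0.25 and -1.35 ± 0.25), and so did keap1a, a brake on the Nrf2 pathway (-1.33 ± 0.20 and -1.27 ± 0.20). Both spots were dim: bach1b was above background on 4 of 6 and 6 of 7 arrays of 50 µg/L and keap1a on 3 of 6 and 5 of 7. The glutathione peroxidase gene gpx4a fell (-1.80 ± 0.32 and -1.81 ± 0.31), as did catalase (cat), which breaks down hydrogen peroxide (-1.12 ± 0.26 and -1.63 ± 0.26). The peroxiredoxin gene prdx4 rose by 1.34 ± 0.16 and 1.24 ± 0.16.

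The marker lists put these values beside the make-up of the samples. Of 13 erythrocyte markers 1 fell at 50 µg/L and 24 h (blvrb, which is also in a heme list) and none changed in the other 5 comparisons with control, with list medians of -0.30 to 0.18. By the brightest probe of each gene, none of 15 macrophage and neutrophil markers changed in any of the 6. A second probe of the neutrophil peroxidase gene mpx, 5452390, disagreed: it fell at 50 µg/L (-3.59 and -4.24 at 24 and 96 h, adjusted p = 4.29e-16 and 2.93e-19), while the brighter mpx probe gave 0.48 and 0.91 (adjusted p = 0.699 and 0.312). Most hepatocyte markers fell as well: at 50 µg/L 6 of 9 fell at each time, where 5.7% and 8.78% of all tested probes fell. The range of their mean log2 ratio was 2.17 to 3.13 on 24 h controls and 0.30 to 2.05 at 50 µg/L, then 2.27 to 3.24 and 0.69 to 1.75 at 96 h. Among them serpina1, the gene of a plasma protease inhibitor, fell (-2.37 ± 0.27 and -2.49 ± 0.27), as did the fibrinogen gene fgb (-2.34 ± 0.29 and -1.81 ± 0.29) and, at 96 h, hpda of tyrosine breakdown (-1.79 ± 0.26). Not all followed: apoa1a (-0.54 and 0.27 at 24 and 96 h) and ttr (-0.13 and -0.62) passed at neither time. Nor did fabp10a pass at 24 h (-0.95) or ambp at 96 h (-0.53). A second serpina1 probe, 5452299, with no saturated spot, did not follow: it gave 0.36 and 0.40 (limma adjusted p = 0.495 and 0.357). The fall of serpina1 therefore rests on the brighter of its probes, which disagree. Spots of apoa1a, serpina1, fgb, fabp10a and tfa were saturated on 6 of 6 arrays of 0.5 µg/L at 24 h, so these means and falls are open to compression. Of the 9 genes, cp and tfa are also in the iron list. The part of hepatocyte content in the falls of hpxa, hp and hmox1b was not tested.

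The genes whose log2 ratios ran most alike over the arrays, by Pearson r over 48 to 50 arrays that share treatment groups, are given as a description. For hpxa they were pno1 (0.870), grhprb (0.868) and comtd1 (0.858), and for hp the complement gene c9 (0.897), comtd1 (0.897) and tdo2a (0.897). hmox1b ran closest to apoeb (0.822) and slc25a48 (0.801), then selenop2. fthl31 ran closest to fthl27 (0.837), which is named as its relative, then ctsla (0.836) and sgk1 (0.717). The values for hmox1a were lower, with lman2 (0.673), rgs2 (0.667) and rln3a (0.634).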

How the data were processed

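Liver RNA of 50 fish samples was measured on 2-colour arrays. The authors' deposited value table holds, per the labels, log2 ratios of Cy5 (fish) over Cy3 (pool); how they were normalized is not given in the sources used here. Deposited scanner files of the 35 treated arrays give the intensity (brightness) of each spot and its background and, per the file headers, the percent of pixels above background. Values of the table matched those in the scanner files and correlated with their raw log2 ratios at r of 0.915 to 0.989.

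Arrays were centred on their median, and 8 group means were fitted with limma 3.58.1 in R 4.3.3 to 22046 of 23232 probes with at least 3 values in each group. Each probe had a single estimate of spread, shared by all groups. Doses were compared with each other on scanner brightness (normexp, offset 50, then loess; 22776 probes). The Benjamini-Hochberg adjustment ran over every tested probe, with a threshold of 0.05. Printed p-values come from limma unless called permutation p (100000 permutations within groups, two-sided, as are all tests). Spots with over 50% of pixels above background count as above it. Where a gene has several probes, the brightest in Cy3 stands for it. The fit was tested on simulated data.

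All 5 genes, all their probes and the 3 genes most like each were named. Of each list the up to 4 genes with the smallest p at 50 µg/L were to be named at each time, with others of the heme and iron lists; in the marker, iron-sulfur and oxidative stress lists those that did not pass are left to the counts. mpx was named after its values were seen. Members and lists were chosen with earlier results of these data known. Symbols were updated through the table of the GRCz12tu assembly, and 11508 probes have no name here. The labels do not say whether fish of a group shared a tank, and the p-values cover only the variation among the samples given. Replicate numbers were not treated as pairs in the main fit, and comparing same-numbered arrays cannot exclude that they pair samples. Normalization, array weights, probe and array filters, pooled controls and a replicate block were tried as alternatives. The number of arrays limits the precision, and no sequences were used here.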

Additional observations from a re-analysis of the deposited data

Results flagged for a closer look

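Of 46 sets of 4 to 10 arrays of a group tested by probe, 2 held an array far from the rest, and chance flags about 1 in 20. For hpxa at 0.5 µg/L and 96 h, replicate 6 read -2.14 and the next array 0.47. For hmox1a at 5 µg/L and 96 h, replicate 4 read 0.91 and the next 0.26.

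In 3 cases the effect of a dose differed between 96 and 24 h by a test of the difference: hpxa at 5 µg/L (-4.83, limma adjusted p = 0.0015), fthl31 at 5 µg/L (2.05, adjusted p = 0.0491) and fthl31 at 50 µg/L (2.25, adjusted p = 0.037).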

How the results depend on the processing

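The falls of hp and hmox1b at 5 and 50 µg/L and of hpxa at 50 µg/L at 24 h, and of hpxa and hp at 5 and 50 µg/L and hmox1b at 50 µg/L at 96 h, passed under every alternative run. Replicate numbers are in the labels, but deviations of same-numbered arrays correlated at -0.291 to 0.438 over 35 pairs, and 4 matched their own number best. With a replicate block 7 calls ended: hp and hmox1a at 0.5 µg/L and 24 h (-1.36 and -2.32, adjusted p = 0.0593 and 0.0742), fthl31 at 5 µg/L and 24 h (-1.26, 0.0582), hpxa at 0.5 µg/L and 96 h (-2.14, 0.0539), hmox1b at 5 µg/L and 96 h (-1.45, 0.0836), and both time differences of fthl31 (2.18 and 2.35, 0.0597 and 0.0642). The weak 24 h calls also ended elsewhere, with the cause not tested: hp at 0.5 µg/L with quantile normalization, array weights, only the arrays compared or without 24 h controls 1 to 3 (-1.04, -0.73, -1.31 and -1.20), hmox1a at 0.5 µg/L in these and with pooled controls or without low-signal arrays (-2.22 to -0.87), fthl31 at 5 µg/L with array weights, pooled controls, only the arrays compared or without low-signal arrays (-1.15 to -0.59), and fthl31 at 50 µg/L with pooled controls or only the arrays compared (-0.69 and -1.26). The time difference of fthl31 at 5 µg/L ended with array weights (1.61) and without low-signal arrays (2.05). The block moved no count of changed probes by over 1.5 times. The difference of fthl31 at 50 µg/L and 96 h passed with quantile normalization (0.99), no centring (0.98), array weights (0.98), probes complete on all arrays (0.99) and only the arrays compared (0.99), with adjusted p of 0.0183 to 0.0499.

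Counts of changed probes moved as follows. Array weights gave 342, 2368 and 1618 for 0.5 and 5 µg/L at 24 h and 0.5 µg/L at 96 h (111, 1340 and 716 reported), and 444 and 260 for the time differences at 0.5 and 50 µg/L (167 and 43). Without low-signal arrays 50 µg/L at 24 h gave 1857 (2820), its time difference 148 and 50 against 5 µg/L at 24 h 19 (63). Pooled controls gave 2226 for 5 µg/L at 24 h, only the arrays compared 44 for 0.5 µg/L at 24 h, and quantile normalization 125 for 96 against 24 h controls (224). Without 24 h controls 1 to 3, 0.5 µg/L at 24 h gave 43, the time differences 104, 134 and 1 (167, 281 and 43), and the control comparison 17. Leaving out 1 array gave 63 to 178 at 0.5 µg/L and 24 h, 415 to 942 at 0.5 µg/L and 96 h, 161 to 345 and 6 to 135 for the time differences at 5 and 50 µg/L, 98 to 395 between controls, 527 to 1170 and 296 to 545 for 5 against 0.5 µg/L at 24 and 96 h, and 30 to 52 and 0 to 1 for 50 against 5 µg/L. Fewer arrays or other weights enter these fits, and the cause was not tested further.

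Only differences that did not pass changed sign. With quantile normalization hmox1b at 0.5 µg/L and 24 h gave 0.25, hmox1a at 0.5 and 50 µg/L and 96 h 0.061 and 0.10, and 96 against 24 h controls 0.024 for hp and 0.089 for hmox1b. With array weights fthl31 gave -0.13 for the time difference at 0.5 µg/L and hp 0.092 between controls. Pooled controls gave 0.11 for fthl31 at 0.5 µg/L and 24 h, and without low-signal arrays hmox1a gave -0.0074 for 50 against 5 µg/L at 24 h. Without 24 h controls 1 to 3, fthl31 gave 0.37 at 0.5 µg/L and 24 h and -0.63 for its time difference, hmox1a -0.70 for the time difference at 5 µg/L, and between controls hp gave 0.069, hmox1a 0.20 and hmox1b 0.21. Leaving out 1 array crossed 0 for fthl31 (50 against 5 µg/L at 96 h, -0.12 to 0.35; time difference at 0.5 µg/L, -0.12 to 0.46), hmox1a (0.5 and 50 µg/L at 96 h, -0.23 to 0.27 and -0.36 to 0.23; 50 against 5 µg/L at 24 h, -0.093 to 0.38), control differences of hmox1b (-0.38 to 0.079) and hp (-0.11 to 0.088), and the dim hpxa probe (5 against 0.5 and 50 against 5 µg/L at 96 h, -0.19 to 0.050 and -0.067 to 0.13).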

Other observations

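On untreated males the mean log2 ratio to the mixed-sex pool was 3.59 and 3.55 for hp, 3.92 and 3.75 for hmox1b and 2.20 and 2.49 for hpxa at 24 and 96 h. The pool was made from equal amounts of male and female RNA, so a transcript found in males alone would give a log2 ratio of 1 if the males in the pool resembled the controls and both dyes acted alike. Of 22046 tested probes 1273 (5.77%) exceeded 1 in the 24 h controls and 1465 (6.65%) in the 96 h controls. No array had the dyes swapped, and what lifts these ratios above 1 was not tested.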
